A study of Rattus norvegicus with 20 samples.

Results

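The genes described here encode receptors for 2 families of growth factor: Ntrk2 (TrkB) and Ntrk3 (TrkC), which bind neurotrophins, and Ret with its co-receptors Gfra1 and Gfra2, which bind the GDNF family. They were followed in cultured subplate neurons of the rat. Members were taken as every probe set that the authors' annotated table of expressed genes assigns to one of the 5 symbols. That gave 12 probe sets among the 17191 of that table that were tested, and 31042 were tested in all. Ntrk2 had 6 probe sets, Ret 2, Gfra2 2, Ntrk3 1 and Gfra1 1. A probe set is a group of short array probes that reads a single stretch of transcript, so each was described on its own.

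TrkB binds BDNF and neurotrophin-4, and TrkC binds neurotrophin-3. Both are tyrosine kinases that recruit Shc, Frs2 and phospholipase C gamma once the ligand pairs the receptor chains, and both genes also make truncated receptors without the kinase. Truncated TrkB is the main form in astrocytes, whereas full-length TrkB is found mostly in neurons. Ret is the tyrosine kinase of the GDNF family. It does not bind the ligand alone: GDNF is held by the membrane-anchored GFRα1 (Gfra1) and neurturin by GFRα2 (Gfra2), and the complex then engages Ret. Subplate neurons are early-born neurons below the cortical plate, and they carry the low-affinity neurotrophin receptor p75, which was used here to isolate them.

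All groups came from the posterior neocortex of rats at embryonic day 17, the strain not being stated. Cells were bound to a dish coated with an antibody to p75, and those that stuck were plated on glass in serum-free medium. Cocultured coverslips stood on wax dots above a dense layer of cortical cells, made from those that had not stuck, so medium was shared without contact. Control coverslips stood in wells with wax dots and medium alone. RNA of the coverslips was taken after 24 h or 96 h, with 5 biological replicates in each of the 4 groups: cocultured 24 h, control 24 h, cocultured 96 h and control 96 h. Generally 6 coverslips were pooled, and 100 ng of RNA went through repeated rounds of amplification before hybridisation to Affymetrix rat arrays. The study asked which transcripts change when coculture induces synapses. In these bulk samples fewer cells of a type and less RNA per cell cannot be told apart. Cocultured and control neurons below stand for the whole coverslip cultures, so a difference is not assigned to neurons or to any other cell type.

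The deposited value is a ratio, the signal of a probe set over its median across the 20 arrays, given below as log2. A value of 0 is that median, and levels of different probe sets cannot be compared. The replicate 5 array stood apart in each group. The mean log2 ratio of 18 hybridisation control probe sets was highest there, at 1.36 in cocultured and 0.52 in control arrays at 24 h, and at 1.62 in cocultured and 0.50 in control arrays at 96 h. The group median was 0.07 in cocultured and -0.89 in control arrays at 24 h, and 0.54 in cocultured and -1.02 in control arrays at 96 h. Markers of glia also moved with coculture. Of 8 radial glia probe sets 6 rose at 24 h and 7 at 96 h, and of 10 astrocyte probe sets 2 rose at 24 h and 7 at 96 h. Markers of oligodendrocyte lineage rose in 4 of 11 probe sets at each time. Of 15 pan-neuronal probe sets none passed at 24 h, while 2 rose and 2 fell at 96 h. The 9 subplate probe sets of 5 genes held none past the threshold at 24 h, and 1 risen and 2 fallen at 96 h. Of the expressed probe sets 5.28% were called at 24 h, and 8.52% rose and 30% fell at 96 h. Same-numbered arrays deviated together, so a fit with the replicate number as a block is given beside receptor results and list counts that it changed. With it 7 radial glia probe sets rose at 24 h, and 7 rose and 1 fell at 96 h. The astrocyte list held 5 risen at 24 h, and 8 risen and 1 fallen at 96 h. In the oligodendrocyte lineage list 5 rose and 1 fell at 96 h. The pan-neuronal list then held 1 risen and 5 fallen at 24 h, and 3 risen and 6 fallen at 96 h. The subplate list held 1 risen and 5 fallen at 24 h, and 1 risen and 4 fallen at 96 h. Of all probe sets 11.9% rose and 16% fell with the block at 24 h, and 34.1% rose and 27.8% fell at 96 h. The part of the shifts in markers and hybridisation controls in the results below was not tested.

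At 96 h some receptor probe sets were higher and others lower in coculture. An Ntrk2 probe set (1383135_at) was 5.39-fold higher in cocultured than in control cultures, and another (1397246_at) 2.23-fold higher. Gfra1 was 3.01-fold lower, both Ret probe sets were 2.10-fold and 1.94-fold lower, and Gfra2 (1369167_at) was 1.73-fold lower. Thus 2 of the 12 probe sets rose and 4 fell at an adjusted p under 0.05 (limma, Benjamini-Hochberg over all probe sets tested). The share called, 50%, compares with 32% of all probe sets and 38.6% of the annotated expressed ones. By direction, rises made up 14.1% and falls 17.9% of all probe sets, and 8.52% and 30% of the expressed ones. The share of the 12 that fell thus lay near that of the expressed ones. Groups did not overlap for 5 of the 12, against 16.6% of all probe sets. Shares of non-overlap, and of calls in alternative fits, are over all probe sets only where they are given here and below. The 12 come from the expressed ones, where more were called at 96 h and falls were commoner, so these shares are not a like base. The median difference over the 12 was -0.28, beside 0.09 over all probe sets and -0.26 over the expressed ones.

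At 24 h only Ntrk2 1383135_at had passed, at 2.71-fold higher in cocultured neurons. That is 8.33% of the 12, against 3.31% of all probe sets and 5.28% of the expressed ones, and 1.21% of all probe sets rose. It was also the only 1 of the 12 without overlap between groups, against 4.74% of all probe sets. The median difference was -0.26 over the 12, 0.04 over all and -0.13 over the expressed ones. With the replicate number as a block, 1 probe set rose and 4 fell at 24 h, where 28% of all probe sets were called (11.9% rose and 16% fell). At 96 h 2 rose and 6 fell with it, where 62% were called (34.1% rose and 27.8% fell). Without the 4 replicate 5 arrays 5 of the 12 passed at 24 h, 2 higher and 3 lower, where 15.3% of all probe sets passed. With the block and the hybridisation controls fitted together none of the 12 passed at either time, and only 0.0548% of all probe sets passed at 24 h and 0.0193% at 96 h. The differences at 96 h were then 2.48 for Ntrk2 1383135_at, 1.76 for 1397246_at, -2.51 for Gfra1 and -1.23 for Gfra2 1369167_at. They were -0.04 for Ret 1370989_at and -0.24 for Ret 1371112_at. The hybridisation mean was higher in the cocultured than in the control array of every replicate number at both times. This fit therefore separates it poorly from coculture, and the small Ret values show neither a fall nor its absence. The comparisons share arrays, so they are not independent of each other.

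**Figure D1:**
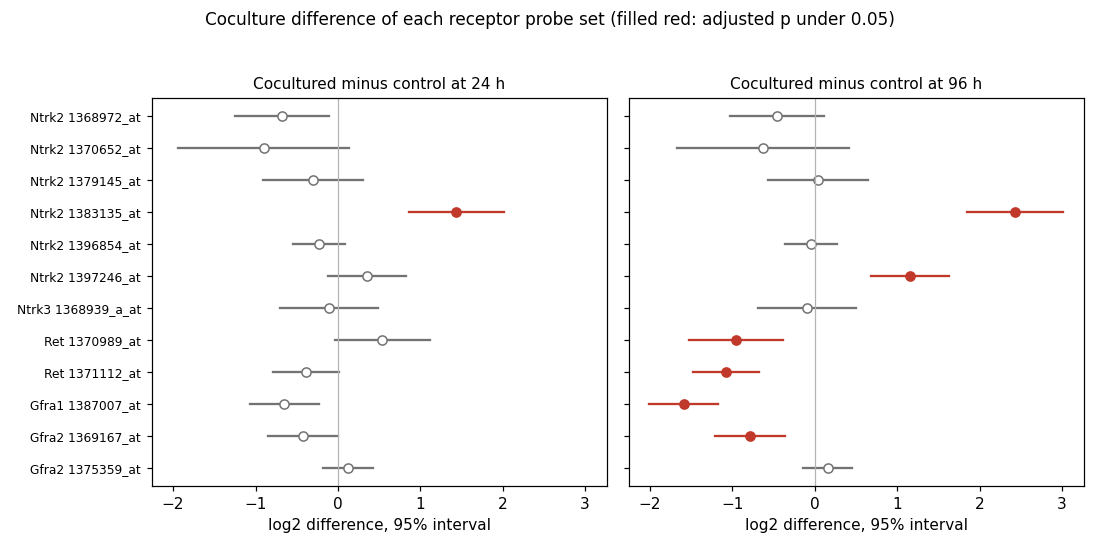
Coculture difference (cocultured minus control, log2) of the 12 receptor probe sets at 24 h (left) and 96 h (right), as points with 95% intervals; filled red points passed an adjusted p under 0.05. Only Ntrk2 1383135_at is filled at 24 h (1.44), and at 96 h 2 Ntrk2 probe sets lie right of 0 and 4 Ret, Gfra1 and Gfra2 probe sets lie left of it.

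The 6 Ntrk2 probe sets did not move together. Probe set 1383135_at, designed from an expressed sequence tag, had log2 ratios of 1.32, 1.17, 1.16, 1.23 and 2.25 in cocultured neurons at 96 h, and of -1.57, -0.58, -0.81, -0.82 and -1.24 in controls. Every cocultured array lay above every control array, and replicate 5 was the highest cocultured one. The difference was 2.43 ± 0.28 (SE; limma adjusted p = 8.61e-06), and the within-group SD was 0.46 in cocultured and 0.40 in control neurons (n = 5 each).

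The same probe set was already apart at 24 h. Cocultured neurons gave 0.40, 0.40, 0.17, 0.63 and 1.59, and controls -0.19, -0.91, -1.06, -0.48 and -1.37. Again no array of either group fell among the other, though replicate 5 was the extreme on both sides. The difference was 1.44 ± 0.28 (limma adjusted p = 0.00523) and 1.06 without the replicate 5 arrays (limma adjusted p = 0.00177). The 96 h difference exceeded that at 24 h by 0.99 (95% interval 0.17 to 1.81), which did not pass over all probe sets (limma adjusted p = 0.887).

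Probe set 1397246_at, likewise from an expressed sequence tag, separated the groups at 96 h alone. Cocultured neurons had 0.99, 0.63, 0.42, 0.52 and 0.98, against 0.20, -0.10, -0.50, -0.86 and -0.99 in controls, with no overlap. The difference at 96 h was 1.15 ± 0.23 (limma adjusted p = 0.00166). At 24 h its values ran between -0.38 and 0.23 in cocultured neurons and between -0.93 and 0.24 in controls, and the difference of 0.35 (95% interval -0.12 to 0.83) did not pass.

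The 2 Ntrk2 probe sets designed from mRNA sequences pointed the other way. Probe set 1368972_at gave -0.53, -0.24, -0.48, -0.41 and -1.17 in cocultured neurons at 24 h, and 0.53, 0.23, 0.08, 0.26 and -0.53 in controls. Only the replicate 5 control reached into the cocultured range. The difference was -0.68 ± 0.27 (limma adjusted p = 0.193), and it passed with the replicate block (limma adjusted p = 0.00167). It also passed without the 4 replicate 5 arrays, at -0.69 (limma adjusted p = 2.73e-04), and without cocultured 96 h replicate 5 alone, at -0.68 (limma adjusted p = 0.0353). At 96 h cocultured arrays held -0.07, 0.02, 0.10, -0.02 and -1.62, and controls 0.30, 0.33, 0.22, 0.10 and -0.24. The 96 h difference of -0.46 (95% interval -1.03 to 0.11) passed only with the block (limma adjusted p = 0.0103).

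Probe set 1370652_at spread more widely within groups. It held -0.02, 0.15, -0.51, -0.13 and -1.57 in cocultured neurons at 24 h, against 1.26, 1.12, 0.10, 0.87 and -0.94 in controls. Each cocultured array was below the control array of its own number. The difference was -0.90 ± 0.50 at 24 h (limma adjusted p = 0.353; 8.54e-04 with the block) and -0.63 ± 0.50 at 96 h (limma adjusted p = 0.305; 0.00515 with the block).

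The remaining Ntrk2 probe sets, 1379145_at and 1396854_at, passed at neither time. Their 96 h differences were 0.04 (95% interval -0.57 to 0.65) and -0.04 (95% interval -0.36 to 0.27). At 24 h 1379145_at differed by -0.30 (95% interval -0.91 to 0.31) and 1396854_at by -0.23 (95% interval -0.54 to 0.09). Which Ntrk2 transcripts each probe set reads was not determined here.

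**Figure D2:**
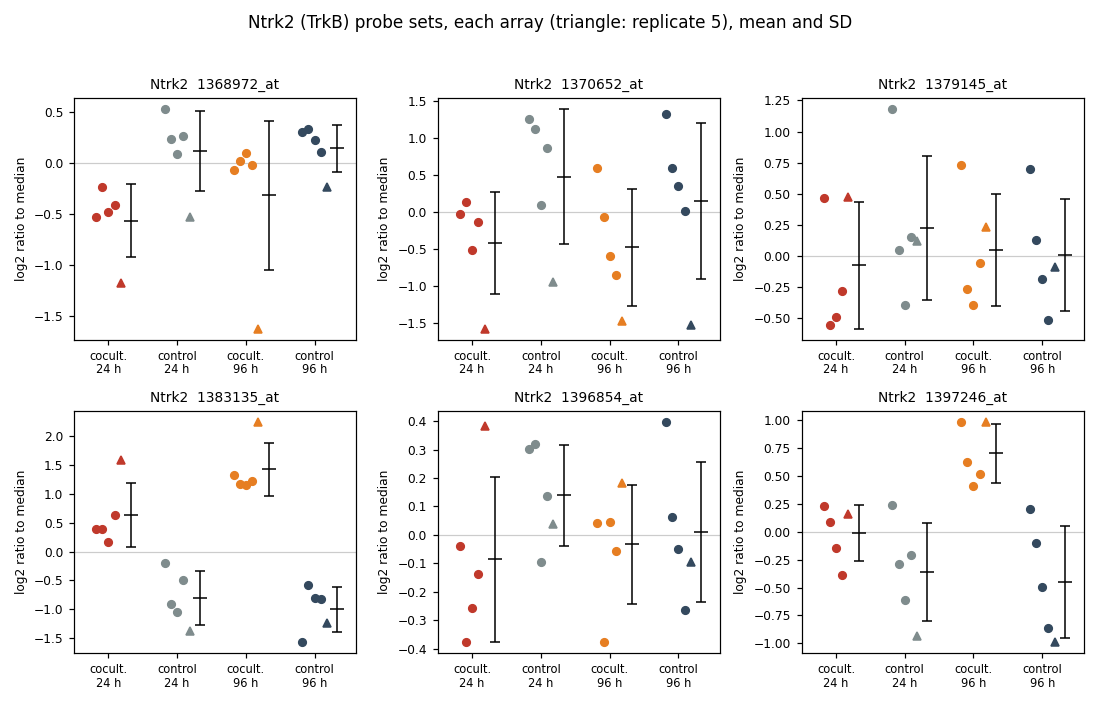
Log2 ratio to the median across arrays of the 6 Ntrk2 probe sets on every array, by group, with the group mean and SD (n = 5) as bars beside the points; triangles are replicate 5 arrays and each panel has its own vertical scale. Cocultured arrays lie above controls at both times for 1383135_at and at 96 h for 1397246_at, while most lie below controls for 1368972_at.

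Whether probe sets of a gene responded differently was tested on each array's difference between the 2 probe sets, by an exact two-sided permutation test of cocultured against control arrays. There were 34 such tests over Ntrk2, Ret and Gfra2, with p-values adjusted over them. The smallest exact p that 5 against 5 arrays allow is 0.00794. The shuffling ignored replicate numbers, although same-numbered arrays deviated together, and no paired version was run. Shuffling only within same-numbered arrays allows too few arrangements for any of these tests to pass. Exact p-values here and below come from the unpaired test alone. By this unpaired test 8 of the 15 Ntrk2 pairs differed at 24 h and 9 at 96 h. All 5 pairs that include 1383135_at differed at both times (exact p = 0.00794, adjusted 0.018). Its coculture effect exceeded that of 1368972_at by 2.12 at 24 h and 2.89 at 96 h. Even against 1397246_at, the other probe set that rose, the excess was 1.09 at 24 h and 1.28 at 96 h. The mRNA-derived pair 1368972_at and 1370652_at differed in effect by 0.22 at 24 h (exact p = 0.46) and 0.17 at 96 h (exact p = 0.746).

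Of the Ntrk2 probe sets, 1383135_at and 1368972_at had the highest and lowest r with the astrocyte list, and they followed different marker lists. Across the 20 arrays 1383135_at had a Pearson r of 0.96 with the mean of the astrocyte list, and of 0.72 once group means were taken out of both. Its r was also high with the radial glia list (0.92, and 0.49 without group means) and the oligodendrocyte lineage list (0.88, and 0.30), and it was 0.71 with the hybridisation controls (0.25 without group means). For 1368972_at the r with the astrocyte list was -0.58 (-0.50 without group means). It was 0.91 with the subplate list (0.87 without group means) and 0.81 with the pan-neuronal list (0.82), and -0.79 with the hybridisation controls (-0.75). These 20 points share 4 groups, and replicate 5 lies at an end of both relations. For 1397246_at the r with the astrocyte list was 0.77, but 0.19 without group means. For 1370652_at the r with the subplate list was 0.71 (0.69). Over the 20 arrays 1379145_at and 1396854_at followed neither list, at -0.04 and -0.09 with the astrocyte list and 0.06 and -0.03 with the subplate list. The astrocyte list mean ran between 0.60 and 1.32 in cocultured and between -0.71 and -0.53 in control neurons at 96 h, and between 0.10 and 0.99 in cocultured and between -0.65 and -0.15 in control neurons at 24 h. Within the list Apoe (apolipoprotein E) differed by 3.97, Gja1 (a gap junction protein) by 2.51 and Gfap (glial filament protein) by 2.32 at 96 h, while Aqp4 (aquaporin 4) differed by -0.19 without passing. Aldh1l1, Slc1a2, Gjb6 and Sox9 of that list were not analysed here. The part of astrocytes in the Ntrk2 values was not tested.

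**Figure D3:**
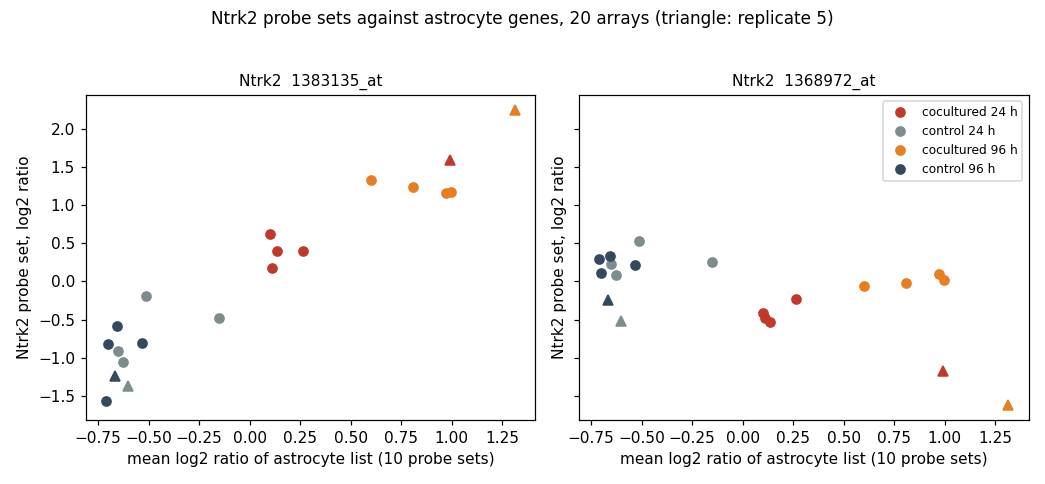
Log2 ratio of Ntrk2 probe sets 1383135_at (left) and 1368972_at (right) against the mean log2 ratio of the 10 astrocyte probe sets, 1 point per array, coloured by group, with triangles for replicate 5. In the left panel the cocultured 96 h arrays and cocultured 24 h replicate 5 lie highest and control arrays lowest, and in the right panel the replicate 5 cocultured arrays lie lowest.

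Ntrk3, read by 1368939_a_at, showed no called difference. At 96 h cocultured neurons had -0.35, 0.24, -0.09, 0.05 and -0.92, against 0.11, 0.10, -0.11, -0.09 and -0.63 in controls. The groups overlapped, and replicate 5 was the lowest array in both. The difference was -0.09 (95% interval -0.69 to 0.51) at 96 h and -0.11 (95% interval -0.71 to 0.49) at 24 h. In some other fits the difference at 96 h was positive and passed. It was 0.53 after cyclic loess (limma adjusted p = 0.0184) and 0.80 with the hybridisation controls as a covariate (limma adjusted p = 0.00429). Its r was 0.85 with the pan-neuronal list mean and -0.72 with the mean of the hybridisation controls over the 20 arrays.

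Both Ret probe sets were lower in cocultured neurons at 96 h. Probe set 1371112_at gave -1.12, -0.79, -1.16, -0.70 and -0.46 in cocultured neurons, against 0.17, 0.52, 0.38, 0.29 and -0.24 in controls. All cocultured arrays lay below all controls. The difference was -1.07 ± 0.19 (limma adjusted p = 8.15e-04), but it was -0.47 after cyclic loess and then did not pass (limma adjusted p = 0.173).

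Probe set 1370989_at had -1.01, -0.12, -0.34, -1.41 and -1.30 in cocultured neurons at 96 h, against 0.36, 0.03, -0.07, -0.14 and 0.42 in controls. Cocultured replicate 2 lay just above the lowest control, and the other cocultured arrays lay below all controls. The difference was -0.95 ± 0.28 (limma adjusted p = 0.0161), and -0.81 with the hybridisation covariate, which ended the call (limma adjusted p = 0.144).

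At 24 h this Ret probe set tended to the other side. It held 0.74, 1.13, 1.10, 0.76 and -0.16 in cocultured neurons, and -0.01, 0.01, 0.05, -0.16 and 0.99 in controls. Replicates 1 to 4 were higher in coculture, and replicate 5 was reversed. The difference was 0.54 ± 0.28 (limma adjusted p = 0.313). Without the 4 replicate 5 arrays it was 0.96 (limma adjusted p = 0.00608). Probe set 1371112_at differed by -0.39 (95% interval -0.79 to 0.01) at 24 h. The responses of the 2 Ret probe sets differed by 0.93 at 24 h (exact p = 0.0397, adjusted 0.0642) and by 0.12 at 96 h (exact p = 0.794).

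Gfra1, the GDNF-binding co-receptor, showed the largest fall of the 12 probe sets at 96 h. Probe set 1387007_at gave -0.69, -0.94, -1.01, -0.82 and -1.04 in cocultured neurons at 96 h, and 0.53, 1.06, 0.58, 0.62 and 0.67 in controls. The groups were far apart, with little spread inside either. The difference was -1.59 ± 0.20 (limma adjusted p = 2.7e-05), with means of -0.90 ± 0.14 in cocultured and 0.69 ± 0.22 in control neurons (SD, n = 5 each).

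At 24 h Gfra1 had -0.28, -0.27, -0.50, -0.90 and 0.36 in cocultured neurons, and 0.51, 0.23, 0.08, -0.08 and 0.94 in controls. Each cocultured array was below the control of its number, though the groups overlapped. The difference was -0.65 ± 0.20 (limma adjusted p = 0.0808). It passed with the replicate block (limma adjusted p = 0.00595), without the 4 replicate 5 arrays, at -0.67 (limma adjusted p = 0.00903), and without cocultured 24 h replicate 5 alone, at -0.82 (limma adjusted p = 0.0164).

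Gfra2, the neurturin-binding co-receptor, was read by probe sets that disagreed. Probe set 1369167_at, designed from the mRNA, held -0.20, -0.75, -0.54, -0.42 and 0.18 in cocultured neurons at 96 h, against 0.52, 0.88, 0.32, 0.21 and 0.29 in controls. Cocultured replicate 5 came close to the lowest control without crossing it. The difference was -0.79 ± 0.20 (limma adjusted p = 0.00898), and -0.64 after cyclic loess, where it did not pass (limma adjusted p = 0.0711). At 24 h it differed by -0.43 ± 0.20 (limma adjusted p = 0.278; 0.0496 with the block).

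Probe set 1375359_at, from an expressed sequence tag, differed by 0.16 (95% interval -0.15 to 0.46) at 96 h and by 0.13 (95% interval -0.18 to 0.43) at 24 h. Its cocultured values at 96 h ran between -0.06 and 0.77, with replicate 5 highest, and its control values between -0.12 and 0.24. The coculture effects of the Gfra2 probe sets differed by -0.95 at 96 h (exact p = 0.00794, adjusted 0.018) and by -0.55 at 24 h (exact p = 0.0317, adjusted 0.054).

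**Figure D4:**
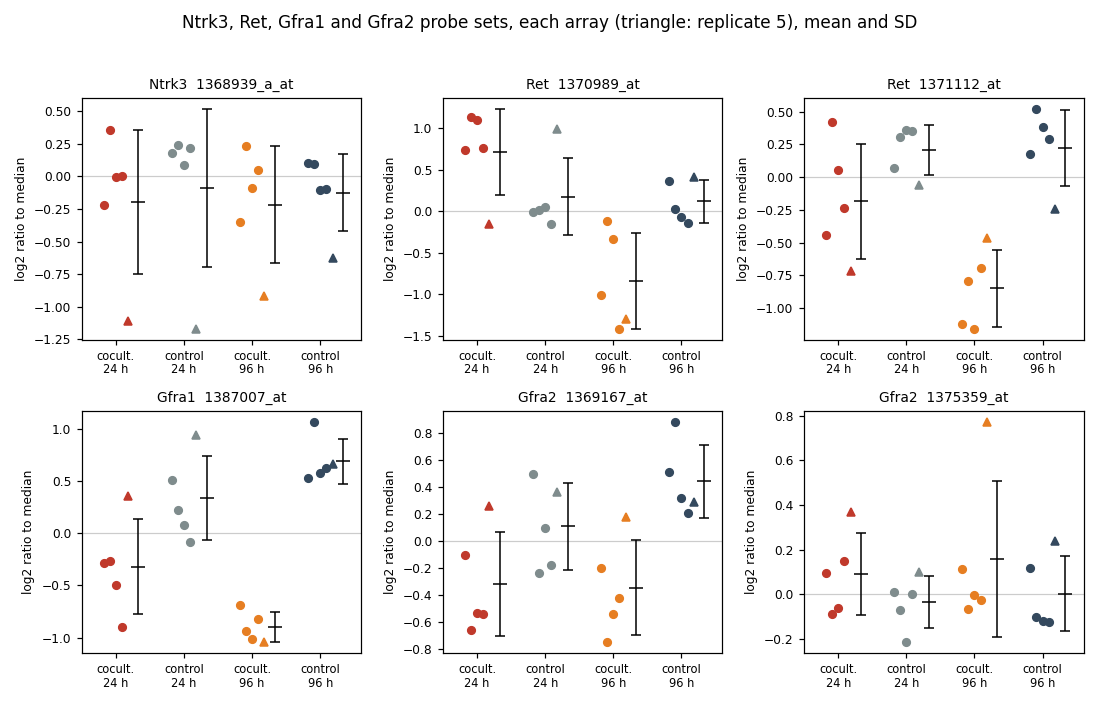
Log2 ratio to the median across arrays of the Ntrk3, Ret, Gfra1 and Gfra2 probe sets on every array, by group, with group mean and SD (n = 5) as bars beside the points; triangles are replicate 5 arrays and vertical scales differ. At 96 h cocultured arrays lie below controls for Ret 1371112_at, Gfra1 and Gfra2 1369167_at, and Ret 1370989_at is the panel where cocultured arrays are mostly above controls at 24 h and below them at 96 h.

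The promoter windows of Ret and Gfra1, whose probe sets fell together at 96 h, are shown from RefSeq on build GRCr8. Each runs from 250 bases before to 50 bases after the annotated start, 5′ to 3′ on the minus strand. Capitals mark the GC box GGGCGG, the letters bound by the Sp1 family, searched on both strands. Of the 5 genes, 2 were matched in that table, and Ntrk2, Ntrk3 and Gfra2 are named only.
Ret, chr4:153040507-153040806: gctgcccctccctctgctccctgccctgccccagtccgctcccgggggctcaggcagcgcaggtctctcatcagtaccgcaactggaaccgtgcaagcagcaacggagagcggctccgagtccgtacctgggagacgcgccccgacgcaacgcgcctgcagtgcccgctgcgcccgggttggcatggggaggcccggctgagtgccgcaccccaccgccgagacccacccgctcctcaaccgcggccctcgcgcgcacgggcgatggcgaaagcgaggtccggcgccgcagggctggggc
Gfra1, chr1:267555762-267556061: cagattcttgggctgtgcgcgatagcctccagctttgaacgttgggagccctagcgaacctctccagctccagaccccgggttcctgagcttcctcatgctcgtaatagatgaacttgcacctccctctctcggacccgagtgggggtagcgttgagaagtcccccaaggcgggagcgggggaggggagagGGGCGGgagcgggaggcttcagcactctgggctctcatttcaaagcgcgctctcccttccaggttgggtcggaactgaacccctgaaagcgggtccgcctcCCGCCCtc
The Gfra1 window held 2 GC boxes, beginning 59 bases before and 42 bases after the start, and the Ret window held 0, while 33.1% of the 33469 windows in the table held the motif. The cyclic AMP element TGACGTCA stood in neither window (1.8% of all windows) and its core TGACG in neither (21.2% of all windows). GC content was 74.0% for Ret and 63.0% for Gfra1. These matches describe letters only.

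Time in culture moved few of the receptor probe sets. Between 96 h and 24 h in cocultured neurons 1 of the 12 passed, 8.33%, against 0.999% of all probe sets (0.583% fell) and 1.63% of the expressed ones. It was Ret 1370989_at, whose mean was -0.84 at 96 h and 0.72 at 24 h, a difference of -1.55 ± 0.28 or 2.93-fold (limma adjusted p = 0.00646). Fitted on the cocultured arrays alone this call was lost (limma adjusted p = 0.11). With the replicate block 14.2% of all probe sets were called, and of the 12 Ntrk2 1397246_at (0.71, limma adjusted p = 0.00877), Ret 1371112_at (-0.66, 0.0102) and Gfra1 (-0.58, 0.0254) also passed. Without the block those 3 had adjusted p-values of 0.175, 0.128 and 0.222. With the block as a random effect Ntrk2 1383135_at passed as well (0.79, limma adjusted p = 0.0438). Ntrk2 1397246_at was the only 1 of the 12 whose 96 h and 24 h cocultured arrays did not overlap, against 1.77% of all probe sets.

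Leaving out cocultured 24 h replicate 5 gave a count of 3, adding Ret 1371112_at (-0.80, limma adjusted p = 0.0208) and Ntrk2 1383135_at (1.03, limma adjusted p = 0.0261). The share of all probe sets called in that fit is not given here, so this count has no base beside it. Without the 4 replicate 5 arrays 4 passed, where 6.88% of all probe sets did, and with the block and the hybridisation controls together none did, against 0.554%. In control neurons 0 of the 12 passed between 96 h and 24 h, against 0.145% of all probe sets, and no probe set of the 12 was without overlap, against 2.42%. Gfra1 differed there by 0.36 (95% interval -0.06 to 0.77) and Gfra2 1369167_at by 0.33 (95% interval -0.09 to 0.76).

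The change of the coculture effect between the times passed for 0 of the 12, against 0.0193% of all probe sets. Ret 1370989_at had the largest, -1.49 ± 0.39 (limma adjusted p = 0.396). Ntrk2 1383135_at, at 0.99, came next in size, and Gfra1 had -0.94 ± 0.28 (limma adjusted p = 0.672). With the block, where 3.17% of all probe sets were called, Ret 1370989_at and Gfra1 passed (limma adjusted p = 0.0337 for Ret and 0.0349 for Gfra1). Without the 4 replicate 5 arrays the Ret value was -1.72 (limma adjusted p = 0.0117).

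Among the ligands, Bdnf was much lower in cocultured neurons. BDNF is the ligand of TrkB and is made by active neurons. Probe set 1368677_at held -2.10, -1.96, -2.55, -2.63 and -1.63 in cocultured neurons at 96 h, and 1.30, 1.82, 1.42, 1.22 and 1.50 in controls. The difference was -3.62 ± 0.19 or 12.3-fold (limma adjusted p = 8.71e-10), and at 24 h it was -3.07 ± 0.19 or 8.41-fold (limma adjusted p = 1.94e-08). The other Bdnf probe set, 1368678_at, fell by 0.61 at 96 h (limma adjusted p = 0.0068) and by 0.64 at 24 h (limma adjusted p = 0.02). Neither probe set had overlapping groups at either time.

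Ntf3, which encodes neurotrophin-3, the ligand of TrkC, was higher at 96 h. Its probe set 1387267_at held -0.16, 0.86, 0.76, 1.35 and 1.33 in cocultured neurons, and -0.67, -0.98, -0.98, -1.01 and -0.07 in controls. Each cocultured array was above the control of its number, and the groups touched only at cocultured replicate 1 and control replicate 5. The difference was 1.57 ± 0.30 or 2.97-fold (limma adjusted p = 0.00141). At 24 h it was 0.35 (95% interval -0.28 to 0.98). Ntf4, Gdnf, Nrtn, Artn and Pspn were not analysed here, nor were the receptors Ngfr, Gfra3 and Gfra4.

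**Figure D5:**
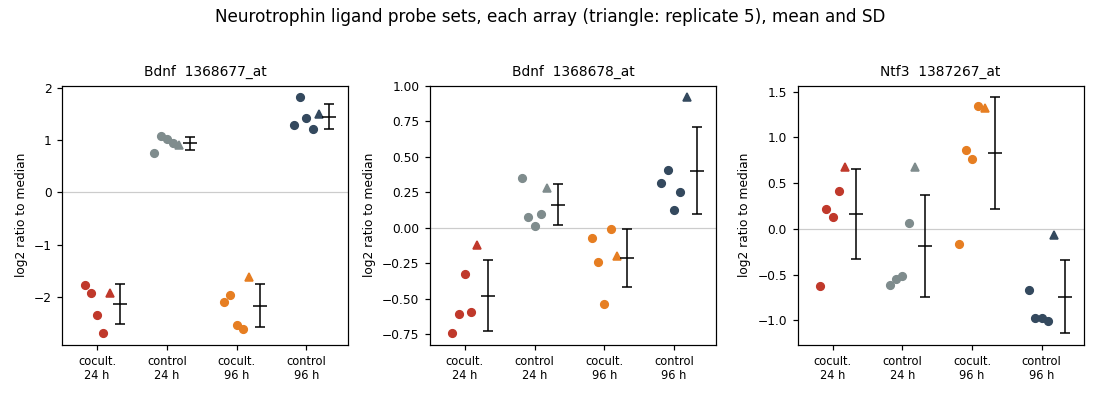
Log2 ratio to the median across arrays of the Bdnf and Ntf3 probe sets on every array, by group, with group mean and SD (n = 5) as bars beside the points; triangles are replicate 5 arrays and vertical scales differ. Both Bdnf probe sets lie lower in cocultured arrays at both times, and Ntf3 lies higher in cocultured arrays at 96 h.

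Of 30 probe sets for 9 further receptors and co-receptors, 2 rose and none fell at 24 h, where 5.28% of the expressed probe sets were called. At 96 h 5 rose and 2 fell, where 8.52% of the expressed ones rose and 30% fell. With the block 5 rose and 2 fell at 24 h, and 11 rose and 5 fell at 96 h. The median difference of the list was 0.10 at both times. Ncam1, an adhesion molecule that can bind GDNF with GFRα1, rose in 1378777_at by 1.18 at 96 h (limma adjusted p = 0.00253) and 1.18 at 24 h (limma adjusted p = 0.00919). Of its other probe sets 1379389_at (0.44, limma adjusted p = 0.0644) and 1368320_at (0.37, limma adjusted p = 0.123) passed at 96 h only with the block (limma adjusted p = 0.00992 and 0.0219). Sorl1, a sorting receptor, rose in 1377457_a_at by 0.44 at 24 h (limma adjusted p = 0.0147). At 96 h Lingo1, a partner of p75, rose by 0.47 in 1389514_at (limma adjusted p = 0.00941). Sorcs3, of the sortilin family, fell by 0.46 (limma adjusted p = 0.0085). A Sort1 (sortilin) probe set, 1372728_at, fell by 0.41 at 96 h (limma adjusted p = 0.0238). The other Sort1 probe sets disagreed at 96 h, with -0.35 in 1371004_at (limma adjusted p = 0.0819) and 0.51 in 1391230_at (limma adjusted p = 0.15). Both passed with the block (limma adjusted p = 0.0362 and 9.02e-04). Sorl1 1386268_at rose by 0.56 (limma adjusted p = 0.023) and Lrig3, of a family of receptor regulators, by 0.56 (limma adjusted p = 0.0473). Ptprs, a receptor phosphatase, rose by 0.72 in 1369094_a_at (limma adjusted p = 0.031). The authors' annotation gives the symbol Ptprd for its probe sets, and the name Ptprs follows from their Entrez identifier. Which of these genes they read is not settled here. Ptprs also disagreed between probe sets at 96 h, with -0.64 in 1370599_a_at (limma adjusted p = 0.0536) and 0.36 in 1397188_at (limma adjusted p = 0.171). Those 2 passed with the block (limma adjusted p = 0.00145 and 0.0162). No probe set of Kidins220, a Trk-bound scaffold, or Sdc3, a proteoglycan that binds GDNF, passed at either time without the block. With it Kidins220 1387864_at passed at 96 h, at -0.36 (limma adjusted p = 0.00234).

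Downstream, 24 probe sets of 16 adaptor genes of Trk and Ret held 1 risen and 1 fallen at 24 h, where 5.28% of the expressed probe sets were called, and 4 risen and 8 fallen at 96 h, where 8.52% rose and 30% fell. With the block 3 rose and 7 fell at 24 h, and 7 rose and 11 fell at 96 h. Gab1, a docking protein, rose by 1.37 at 96 h (limma adjusted p = 7.12e-07) and 1.06 at 24 h (limma adjusted p = 4.94e-05). Cbl, a ubiquitin ligase for activated receptors, fell by 0.84 at 96 h (limma adjusted p = 0.00558) and by 0.82 at 24 h (limma adjusted p = 0.0229). Grb2, which links receptors to Ras, fell by 1.54 in 1368385_a_at at 96 h (limma adjusted p = 6.72e-04). Its other probe sets disagreed at 96 h, with -0.50 in 1368386_at (limma adjusted p = 0.046) and 0.34 in 1370617_at (limma adjusted p = 0.195). The rise in 1370617_at passed with the block (limma adjusted p = 0.0207). Dok5, a docking protein of Ret, fell by 1.48 in 1396206_at (limma adjusted p = 0.00586). The median difference of the list was -0.18 at 24 h and -0.22 at 96 h, beside the -0.13 and -0.26 of all expressed probe sets.

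The Trk receptors and Ret share a kinase cascade. Of 34 probe sets for 20 genes of its Ras, MAP kinase and PI3 kinase core, 14 fell and none rose at 96 h, and 19 fell and 4 rose with the block. Falls are common at that time, at 30% of the annotated expressed probe sets. The median difference of the list was -0.44 at 96 h and -0.15 at 24 h. Mapk3 (ERK1) fell by 0.95 (limma adjusted p = 0.00581) at 96 h. Of 11 probe sets for 8 signalling partners of p75, 7 fell at 96 h and none passed at 24 h. With the block 8 fell at 96 h and 6 at 24 h, where 16% of all probe sets fell. Rhoa, a small GTPase, fell by 1.81 in 1399027_at (limma adjusted p = 4.38e-04) and by 1.62 in 1370130_at (limma adjusted p = 0.00289), and its regulator Arhgdia fell by 0.60 (limma adjusted p = 0.00672). Ripk2, a kinase that can bind p75, fell by 0.60 (limma adjusted p = 0.00909). The median difference of these partners was -0.60 at 96 h and -0.41 at 24 h.

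For the probe set of each receptor gene whose group means spread most, the most similar named genes were found by Pearson r over the 20 arrays among 11177 probe sets. Ntrk2 1383135_at was near to Epb41l2 (0.95) and Zfp36l2 (0.95). Ntrk3 was nearest to Golgb1 (0.94), L1cam (0.94) and Hsd17b4 (0.93). Ret 1370989_at was nearest to Rasl11b (0.87), Lpl (0.86) and Enc1 (0.85). Gfra1 was nearest to Spry2 (0.88), Klf4 (0.87) and Adra1b (0.87). Gfra2 1369167_at was near to Jade1 (0.87) and Cdkn1a (0.87). With group means taken out, r was 0.94 or more for the Ntrk3 genes and between 0.30 and 0.56 for the Gfra1 genes. All points share arrays and groups, so these values describe likeness only.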

How the data were processed

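Signals of 20 one-colour Affymetrix rat arrays were deposited as ratios. Per the file headers the authors divided the RMA value of each probe set by its median over all arrays, and the submitters' processing notes also name MAS5. The chip definition and genome build are not given in the sources used here. A deposited table of 17243 expressed probe sets, per the file headers called present in 10 of the 20 arrays, gave names and the authors' mean ratio per group. The log2 of each ratio was modelled in limma 3.58.1 (R 4.3.3) with a mean for each group, which left 16 residual degrees of freedom. The 57 control probe sets were dropped, and p-values of the other 31042 were adjusted by Benjamini-Hochberg. Ratios carry no signal level, so signal over background is unknown. Symbols were updated through the RefSeq table by Entrez identifier, which turned Ptprd into Ptprs.

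Members, gene lists and alternatives were chosen with earlier results of these data known, so list counts are descriptions. Text names all member probe sets, every ligand measured, up to 4 probe sets a list and comparison with the smallest p, and the 3 nearest genes by Pearson r, except a few genes that are not reported here. The 30 same-number pairs of arrays all correlated in their deviations from group means (lowest r 0.24, median 0.52). In other pairs the median was -0.23. The numbers were therefore taken as paired in the replicate block, but the permutation tests between probe sets did not use them. The labels call the replicates biological, without naming litters. Fits were tested on simulated data. Alternatives were other scalings, the expressed probe sets alone, the replicate block, the hybridisation controls as covariate, the compared groups alone, robust variance moderation and each array left out.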

Additional observations from a re-analysis of the deposited data

Results flagged for a closer look

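In 6 of 48 groups of 5 arrays, 4 groups for each of 12 probe sets, a single array lay far from the others by Dixon's 95% criterion (0.71 of the group's range), which chance meets in about 1 in 20 groups. Replicate 5 supplied 5 of the 6, and it also had the highest hybridisation control signal in each group. The part of that signal was not tested. Ntrk2 1368972_at was lowest there in cocultured neurons at 96 h, at -1.62. Ntrk2 1383135_at was highest there in the same group, at 2.25, and so was Gfra2 1375359_at, at 0.77. Among controls at 24 h, Ntrk3 1368939_a_at was lowest at -1.17 and Ret 1370989_at highest at 0.99, both on replicate 5. The exception was Gfra1 1387007_at, highest on control replicate 2 at 96 h, at 1.06.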

How the results depend on the processing

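The 8 called values kept their direction under all 30 alternatives (240 values), and 228 also kept the call. The lost calls came with cyclic loess, the hybridisation covariate, the compared groups alone and the replicate block with that covariate. That last setting took the Ret differences at 96 h to -0.04 and -0.24, against -0.95 and -1.07, and left 0 called at 24 h, 0 at 96 h and 0 for time in cocultures, against 1, 6 and 1. Its covariate was higher in the cocultured array of every replicate number, so it is poorly separated from coculture there. Ntrk3 at 96 h took the other direction with cyclic loess (0.53) and the covariate (0.80). The cause was not tested. Of 1548 values of the 52 uncalled results, 40 gained the call in the same direction and 2 in the other.

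With the replicate block the counts called were 5 at 24 h, 4 for time in cocultures and 2 for the change of effect, and 5, 5 and 2 with it as a random block. The report gives each receptor probe set that gained a call with it, and the list counts it moved most. Single list genes that gained a call with it were named only in part. The hybridisation covariate gave 3 at 24 h and 3 for time in cocultures, and the compared groups alone gave 0 for time in cocultures. Without the 4 arrays of replicate 5, a setting chosen after seeing the data, the counts were 5 at 24 h, 4 for time in cocultures and 1 for the change of effect. Leaving out each array in turn gave 1 to 2 at 24 h, 6 to 6 at 96 h, 1 to 3 for time in cocultures, and 0 to 0 for time in controls and for the change of effect. The 2 at 24 h came without cocultured 24 h replicate 5 or cocultured 96 h replicate 5, and the 3 without cocultured 24 h replicate 5. For the random block, the hybridisation covariate alone, the compared groups alone and single arrays left out, shares over all probe sets are not given. Those counts therefore have no base beside them. With 5 arrays a group, small differences cannot be resolved.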
